A study of Mus musculus with 3 samples.

Results

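Cytosolic ribosomal protein genes encode the proteins that, together with ribosomal RNA, build the small and large subunits of the ribosome in the cytoplasm. Members were taken by symbol: a row of the deposited count table belonged to the set when its symbol was Rpl or Rps followed directly by a digit, or Rplp0, Rplp1, Rplp2 or Rpsa, leaving out symbols with "-ps", the Rps6k kinases and Rps19bp1. This gave 89 of 39179 rows, 37 for the small subunit and 52 for the large. The annotation classes 84 of them as protein-coding and 5 as pseudogenes (Rps12l1, Rps12l2, Rps3a2, Rps3a3 and Rps4y2). The identifiers of 3 rows carry another name in the annotation. The row labelled Rpl24 has the identifier of Zbtb11, a zinc finger gene at chr16:55973883-56008913 (GRCm38, plus strand), and is called the row labelled Rpl24 below. Rps12l2 is named Rps12-ps24 there and Rps4y2 is named Rps4l.

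The study sequenced RNA from an immunoprecipitation of FTO, an RNA demethylase that acts on methylated adenosine, and asked which RNAs come down with it. All 3 libraries were made from white fat of C57BL/6 mice aged 16 weeks that carried a Flag-FTO transgene and had been fasted overnight. Lysates were incubated with the anti-Flag M2 antibody in 2 libraries (Flag-IP 1 and Flag-IP 2) and with IgG, which measures nonspecific carry-over, in 1 library (IgG-IP). No library came from mice without the transgene, and the sources used here do not give the promoter that drives it. Nothing in the labels ties each library to its own animal, so the spread may be technical. With 1 IgG-IP library, every p-value and SE rests on the spread between the Flag-IP libraries, and the IgG-IP library is assumed to vary as they do. In bulk tissue, fewer cells of a type and less RNA per cell cannot be told apart.

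Ribosomal protein mRNAs are short, are among the most abundant mRNAs of a growing cell, and begin with a 5′ terminal oligopyrimidine tract through which the TOR kinase pathway adjusts their translation. Many of their introns hold small nucleolar RNAs (snoRNAs), which are released from the spliced intron and guide chemical modification of ribosomal RNA. Box C/D snoRNAs guide ribose methylation and box H/ACA snoRNAs guide the conversion of uridine to pseudouridine. The processed copies that these mRNAs have left across the genome make their reads hard to place.

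In the Flag-IP libraries, most counts of the Rps3, Rpl10 and Rps2 rows were matched by those of 4 snoRNA genes inside them. Each lies on its host's strand and touches no exon of the host's longest transcript. They are shown because the rows of their hosts cannot be read without them. Snord15b (chr7:99479563-99479707, minus strand) and Snord15a (chr7:99482785-99482932, minus strand) lie in Rps3 (chr7:99477896-99483738). Snora70 (chrX:74272484-74272620, plus strand) lies in Rpl10 (chrX:74270812-74273135), and Snora64 (chr17:24720772-24720905, plus strand) lies in Rps2 (chr17:24718116-24721929). Positions are in GRCm38 and sequences are GENCODE M21 transcripts, 5′ to 3′. Capitals mark the C box (TGATGA) and the D box (CTGA) of the C/D snoRNAs and the ACA that stands 3 bases before the end of the H/ACA snoRNAs.
Snord15b: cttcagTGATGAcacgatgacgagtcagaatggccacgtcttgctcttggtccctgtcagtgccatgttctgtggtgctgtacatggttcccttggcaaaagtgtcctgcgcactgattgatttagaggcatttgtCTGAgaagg
Snord15a: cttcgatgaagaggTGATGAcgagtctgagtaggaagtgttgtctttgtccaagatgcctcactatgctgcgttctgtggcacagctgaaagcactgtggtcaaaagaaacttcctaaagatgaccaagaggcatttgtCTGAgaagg
Snora70: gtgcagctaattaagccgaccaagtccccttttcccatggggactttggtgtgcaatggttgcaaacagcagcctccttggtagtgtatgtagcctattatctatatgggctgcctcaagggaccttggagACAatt
Snora64: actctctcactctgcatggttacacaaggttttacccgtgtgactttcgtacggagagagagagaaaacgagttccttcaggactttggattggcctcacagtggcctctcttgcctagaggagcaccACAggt
Snord15b is 145 bases long, Snord15a 148, Snora70 137 and Snora64 134. The motifs were searched on the RNA strand, TGATGA in the first 25 bases with CTGA in the last 15, and ACA at its fixed place, with no overlap between the C/D motifs. Of 1507 annotated snoRNA transcripts, 20.3% hold the C/D pattern and 18.3% the ACA pattern. Snord15a and Snord15b are 66.9% identical, end in the same 21 bases and share 0 runs of 50 bases.

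Rps3, a small-subunit protein at the mRNA entry site, had 506 counts in Flag-IP 1, 384 in Flag-IP 2 and 55 in IgG-IP, an order of libraries kept below. Both Flag-IP libraries stood far above IgG-IP, and the log2 fold change was 3.15 ± 0.28 (SE, 2 Flag-IP libraries against 1 IgG-IP library; edgeR quasi-likelihood test, Benjamini-Hochberg adjusted p = 1.15e-26). Snord15b alone had 398, 325 and 41 counts in the same order (log2 fold change 3.27 ± 0.29, adjusted p = 2.00e-26 in the same edgeR test), and Snord15a had 90, 46 and 4 (4.19 ± 0.57, adjusted p = 4.76e-11). These snoRNAs equalled 96.5% of the Rps3 counts in the Flag-IP libraries together and 81.8% in IgG-IP. With them taken off, Rps3 had 18, 13 and 10 counts and did not pass the test (log2 fold change 0.76, edgeR adjusted p = 0.579).

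Rpl10, a large-subunit protein added late in assembly in the cytoplasm, had 28 counts in Flag-IP 1, 14 in Flag-IP 2 and 2 in IgG-IP. Both Flag-IP libraries were above IgG-IP, and the row passed the test (log2 fold change 3.45 ± 0.97, edgeR adjusted p = 0.00788). Snora70 had the same 28, 14 and 2 counts, which left 0 for the rest of Rpl10 in every library. A count of 0 allows up to 3 counts per library, for counting error only. Of the runs of 50 bases in the Rpl10 transcript, 85.4% also occur in other genes. The 0 can therefore not be read as absence of its mRNA. DESeq2 gave no adjusted p for Rpl10.

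Rps2, which lines the mRNA entry channel of the small subunit, had 35, 15 and 10 counts in the same order. Both Flag-IP values exceeded the IgG-IP value, but the row did not pass the test (log2 fold change 1.46 ± 0.64, edgeR adjusted p = 0.125). The value was 0.65 without Flag-IP 1 and 1.99 without Flag-IP 2. Snora64 had 25, 9 and 3 counts and did not pass either (2.60 ± 0.98, edgeR adjusted p = 0.0637). The rest of Rps2 had 10, 6 and 7 counts, with a log2 fold change of 0.33 (edgeR adjusted p = 0.901). The plot of host counts split by snoRNA shows this for the 3 hosts.

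**Figure D1:**
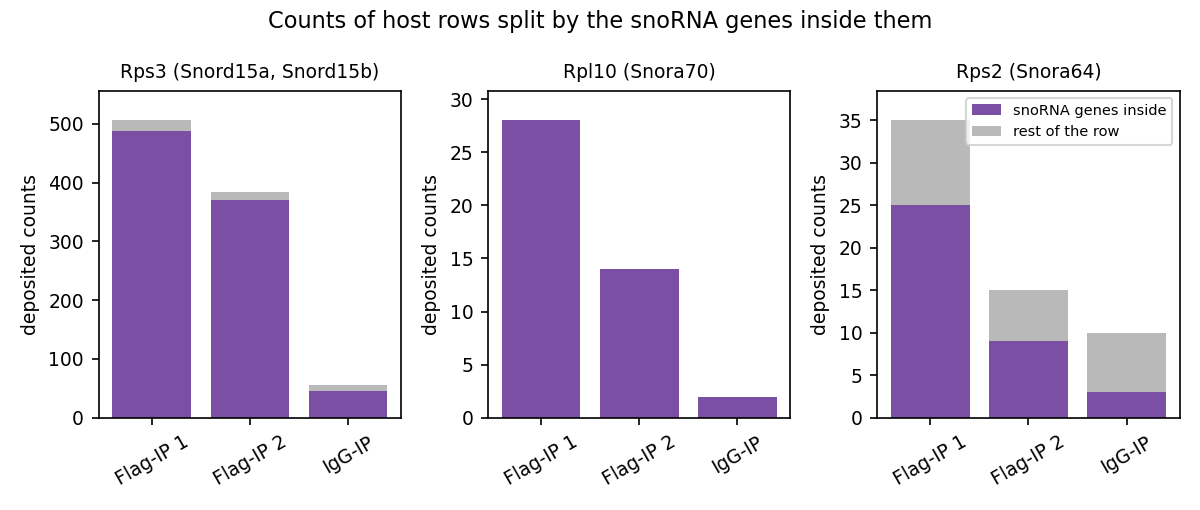
Deposited counts (vertical axes, linear, each panel with its own range) of Rps3, Rpl10 and Rps2 in each of the 3 libraries, as stacked bars of the snoRNA genes inside the host and the rest of the row. In Flag-IP 1 the snoRNA genes match all but 18 of the 506 counts of Rps3, all 28 of Rpl10 and 25 of the 35 of Rps2.

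Over all members, 58 annotated snoRNA genes lie inside 30 members on the host's strand, and 57 of them touch no exon of the host's longest transcript. Of the 58, 26 had 0 counts in every library, and only the 4 above had over 10 counts in total. The other 28 with counts summed to 38 in Flag-IP 1, 22 in Flag-IP 2 and 4 in IgG-IP. In no library did a snoRNA have more counts than its host row. Together the 58 snoRNA genes equalled 58.2% of the members' counts in Flag-IP 1, 47.8% in Flag-IP 2 and 12.6% in IgG-IP. Whether the table counts a read for both the host and the snoRNA is not stated in the sources used here.

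Apart from these hosts, ribosomal protein rows held few counts. The 89 rows summed to 994 counts in Flag-IP 1, 870 in Flag-IP 2 and 430 in IgG-IP, and Rps3 alone was 50.9%, 44.1% and 12.8% of these sums. The median row had 4 counts in each library. Of the 89 rows, 14 were at 0 in Flag-IP 1, 17 in Flag-IP 2 and 19 in IgG-IP, and 4 were at 0 in all of them (Rps12l1, Rps4y2, Rpl22l1 and Rpl10l). A mean of at least 20 counts was reached by 3 rows (Rps3, Rps2 and the row labelled Rpl24), and 76 rows had a mean under 10. The libraries themselves were deep, with 98227791 counts in Flag-IP 1, 95824218 in Flag-IP 2 and 74176962 in IgG-IP. Of these counts, 64 genes with a mean over 10000 took 98.6%, 98.6% and 98.1%, which left 1332804, 1358006 and 1436771 counts for all other genes. The ribosomal protein rows were 0.00101%, 0.000908% and 0.000580% of the libraries. Of the white adipocyte markers, 14 of 14 were above 0 in every library. The 6 endothelial, 6 fibroblast and 4 lymphocyte markers all were too, so presence alone does not check the labelled tissue. The white adipocyte markers had summed counts of 2420, 2075 and 619. Aqp7, the glycerol channel of fat cells, made up 1932, 1631 and 196 of these, so the contrast in the sums is mostly that of Aqp7. Adipoq had 18, 14 and 3 counts and Fabp4 30, 17 and 19. Pparg (68, 117 and 148) and Cidec (117, 93 and 152) had their highest counts in IgG-IP.

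After the filter on low counts 22 of the 89 members were tested, 7 of the small subunit and 15 of the large, and the other 67 were not. The filter needed its minimum in only 1 library, so a low row could pass through the group where it was high. The minimum was scaled to library totals and was lowest in IgG-IP, where Rps20 (0, 7 and 8 counts) passed. The fold changes of these 22, and their median, carry that limit. Of the 22, 2 were higher in Flag-IP (Rps3 and Rpl10) and 0 were lower. Over all 17587 tested genes, 5.58% were called higher and 5.77% lower. At an unadjusted p under 0.05 there were 6 members, 27.3% of those tested, against 24.7% of all tested genes. DESeq2 called 1 member higher (Rps3) and 0 lower, beside 131 higher and 145 lower of all 17587 genes (no adjusted p for 15684). The median log2 fold change of the tested members was 0.62, beside 0.03 over all tested genes. It was 0.19 for the 7 of the small subunit and 0.72 for the 15 of the large, and 13 of the 22 had a fold change above 0. It was 0.21 with snoRNA counts taken off (21 members) and 0.19 over the 7 tested members that overlap no other gene. Without Flag-IP 1 it was 0.084, and without Flag-IP 2 it was 0.81. Scaling by total counts moved the median of all genes by -0.52 and that of the members to 0.10.

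**Figure D2:**
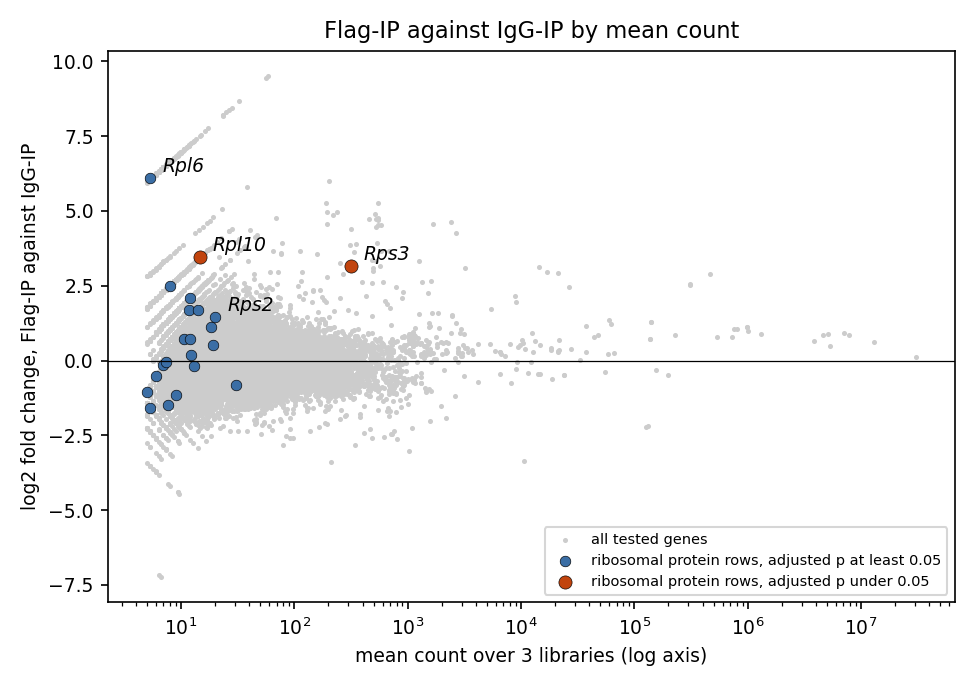
Log2 fold change of Flag-IP against IgG-IP (vertical axis) by mean count over the 3 libraries (horizontal axis, log scale) for all 17587 tested genes in grey and the 22 tested ribosomal protein rows in colour, orange where the adjusted p was under 0.05. Rps3, at 3.15, and Rpl10, at 3.45, are the 2 orange points, and most other members lie in the grey cloud at low counts. The fitted value of Rpl6 rests on 0 counts in IgG-IP and is no bound.

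Among the other tested proteins of the small subunit, none passed the test. Rpsa, which is also known as a laminin receptor, had 10, 20 and 5 counts in that order of libraries, both Flag-IP values above IgG-IP (log2 fold change 1.68 ± 0.93, edgeR adjusted p = 0.256), and 5, 16 and 5 with snoRNA counts taken off. Rps15a had 14, 11 and 12 counts, with the Flag-IP values on both sides of IgG-IP before scaling. Rps23, which sits at the decoding centre, had 2, 4 and 10 counts, both Flag-IP values below IgG-IP (-1.57 ± 1.48, edgeR adjusted p = 0.551). Rps3a1 had 1, 8 and 14 counts, also below IgG-IP in both Flag-IP libraries (-1.50 ± 1.16, edgeR adjusted p = 0.450). Rps20 had 0, 7 and 8 counts, and here the Flag-IP libraries lay far apart relative to their distance from IgG-IP.

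Among the large-subunit proteins, Rpl4 and Rpl22 had both Flag-IP values above IgG-IP without passing the test. Rpl4, which reaches into the wall of the peptide exit tunnel, had 16, 20 and 6 counts (log2 fold change 1.69 ± 0.82, edgeR adjusted p = 0.174). Rpl22, an RNA-binding protein of the subunit surface, had 17, 15 and 4 (2.10 ± 0.95, edgeR adjusted p = 0.140). Rpl8 had 8, 14 and 2 counts (2.50 ± 1.41, edgeR adjusted p = 0.265), again with no overlap between the groups. Rpl6 had 12, 4 and 0 counts (edgeR adjusted p = 0.156). The lower end of the 95% counting interval of its ratio was 2.11, for counting error only. Its scaled Flag-IP mean was 2.99 times a floor of 3 counts in IgG-IP, which is not a lower bound. Flag-IP 2 alone was 1.40 times that floor, and the snoRNA gene Gm26205 inside Rpl6 matched all 4 of its counts, which left 12, 0 and 0 for the rest of the row. A likelihood ratio test in edgeR with the common dispersion called Rpl6, Rpl8 and Rpl22 higher as well, 5 members in all. That test called 1130 of all 17587 tested genes higher.

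Rpl5 and Rpl11, which bind the p53 regulator Mdm2 when ribosome assembly is disturbed, had 17, 10 and 9 counts and 24, 20 and 11 counts. With snoRNA counts taken off, Rpl5 had 9, 10 and 9. Both Flag-IP values as deposited were above IgG-IP for each gene, and neither passed the test (edgeR adjusted p = 0.646 for Rpl5 and 0.284 for Rpl11). Rpl13a, known for a role outside the ribosome in silencing inflammatory mRNAs, had 16, 26 and 16 counts (0.51 ± 0.61, edgeR adjusted p = 0.651). Rpl18 had 18, 6 and 8 counts, with the Flag-IP libraries on both sides of IgG-IP. Rpl15 had 10, 0 and 8 counts, Rpl30 10, 4 and 8, and Rpl35a 7, 6 and 8, none of them separated clearly from IgG-IP. Rpl26, which also binds p53 mRNA, had 10, 2 and 15 counts (-1.15 ± 1.00, edgeR adjusted p = 0.511), lower in both Flag-IP libraries.

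The row labelled Rpl24 had 19, 28 and 45 counts, below IgG-IP in both Flag-IP libraries, and did not pass the test (log2 fold change -0.81 ± 0.45, edgeR adjusted p = 0.258). With total-count scaling it was called lower (-1.32, adjusted p = 0.0324). Its identifier overlaps Pcnp on the opposite strand, with 15, 19 and 27 counts, and Gm28037, with 10, 11 and 14. A separate row written RPL24 in capitals, which the rule does not take, carries the identifier that the annotation names Rpl24 (chr16:55966275-55971435, plus strand). It had 4, 6 and 5 counts. The large-subunit protein Rpl24 is thus represented by that row and not by the member.

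**Figure D3:**
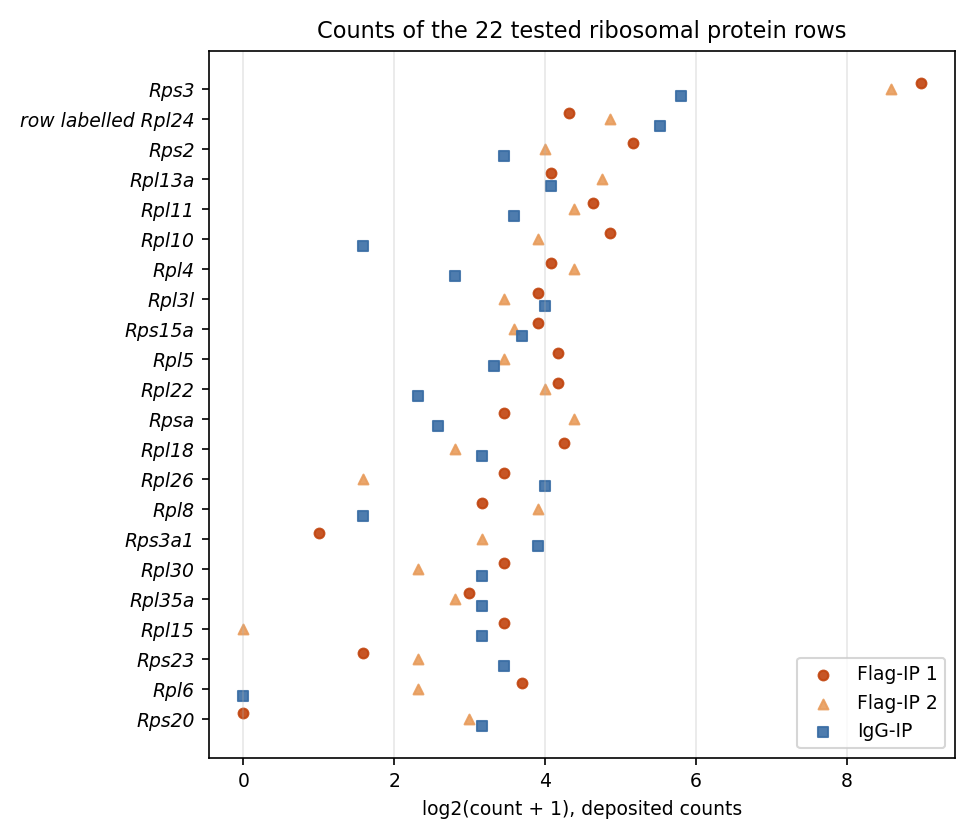
Deposited counts of the 22 tested rows on a log2(count + 1) axis, 1 row of points per gene, circles for Flag-IP 1, triangles for Flag-IP 2 and squares for IgG-IP, ordered by mean count and offset vertically so that equal values stay visible. Rps3 stands apart at 506 and 384 counts in Flag-IP, and all other rows have at most 45 counts in any library.

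The stalk proteins Rplp0, Rplp1 and Rplp2, which recruit the translation factors to the large subunit, were not tested. Rplp0 had 0, 4 and 4 counts, again in that order, Rplp1 had 8, 7 and 4, and Rplp2 had 6, 8 and 4. Rps6, the phosphorylation target of the S6 kinases, had 0, 2 and 2 counts. Rps27a, made as a fusion with ubiquitin, had 7, 3 and 0 counts, and the value of Flag-IP 2 alone was 1.05 times the floor of 3 counts in IgG-IP. Rps19 and Rps14, both known from inherited or acquired anaemias, had 6, 0 and 8 counts and 5, 7 and 2. At these depths a difference of a few counts was not detectable.

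Paralog pairs, here a member and a copy with the same symbol and a suffix such as l or l1, were compared by their counts. Rpl3 had 4, 5 and 2 counts, and Rpl3l, its copy in striated muscle, had 14, 10 and 15 (log2 fold change -0.18 ± 0.75, edgeR adjusted p = 0.913). Per kilobase of transcript, the mean level over the libraries was 2.71 counts for Rpl3 and 9.45 for Rpl3l, and the skeletal muscle markers summed to 145, 85 and 48 counts. Rpl22 had 17, 15 and 4 counts and Rpl22l1 had 0 in each library, and likewise Rpl10l was at 0. Rpl39 had 1, 0 and 0 counts against 2, 8 and 7 for Rpl39l, and Rps27 had 1, 1 and 0 against 0, 4 and 4 for Rps27l. In each of these pairs the copy had the higher mean level per kilobase of transcript, 7.04 against 0.545 counts for Rpl39l and 4.64 against 1.46 for Rps27l. Rpl7 had 8, 4 and 4 counts and Rpl7l1 had 3, 8 and 4, while Rpl36a had 2, 4 and 4 and Rpl36al had 0, 3 and 2. Here the copy had the lower level per kilobase, 1.92 against 4.59 counts for Rpl7l1 and 1.31 against 6.90 for Rpl36al. Rps12 had 3, 6 and 0 counts and Rps12l1, a pseudogene in the annotation, had 0 in each library. Counts of both genes of a pair are uncertain where reads match more than 1 gene. Of the transcript runs of 50 bases, 0% occur in other genes for Rpl3l and Rpl39l and 13.7% for Rps27l. For Rpl3, Rpl39 and Rps27 the shares are 85.6%, 16.5% and 63.1%. The levels per kilobase of a gene and its copy may therefore not compare like with like.

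With counts scaled to the libraries' effective sizes, 42 of the 85 members with any count had both Flag-IP libraries above IgG-IP, 11 had both below and 32 were not separated. Among all 31043 genes with counts, 35.3% had both above and 32.9% both below. Among other protein-coding genes with a mean under 10 counts, 39.3% had both above and 25.1% both below. The members' shares were 49.4% and 12.9%, and with snoRNA counts taken off 38 of 84 were above and 12 below. Scaling by total counts gave 33 members above and 28 below, beside 21.3% and 50.4% of all genes. Among the 22 tested members 11 were above and 5 below, beside 40.5% and 39.0% of tested genes.

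The summed counts of the members were 2.37 times as high in Flag-IP as in IgG-IP after TMM scaling (95% counting interval 2.14 to 2.64), 2.64 for Flag-IP 1 and 2.13 for Flag-IP 2. With the snoRNA counts taken off, the sums were 415, 454 and 376 and the ratio was 1.27 (1.12 to 1.43), 1.26 and 1.27 for the single libraries. Scaling by total counts turned this ratio to 0.883 (0.782 to 0.9997), so its direction depends on the scaling. These intervals cover counting error only and not the spread between samples.

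For the small subunit the sums were 661, 556 and 176, a ratio of 3.79 (3.23 to 4.46). With snoRNA counts taken off they were 138, 167 and 128, a ratio of 1.30 (1.06 to 1.62), and 0.911 with total-count scaling. For the large subunit the sums were 333, 314 and 254, a ratio of 1.40 (1.20 to 1.62), which became 1.25 (1.07 to 1.45) with snoRNA counts taken off. With total-count scaling the large-subunit ratios were 0.974 and 0.869. As deposited, the counting intervals of the subunits' ratios did not overlap, the small subunit's being the higher. With snoRNA counts taken off they overlapped.

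**Figure D4:**
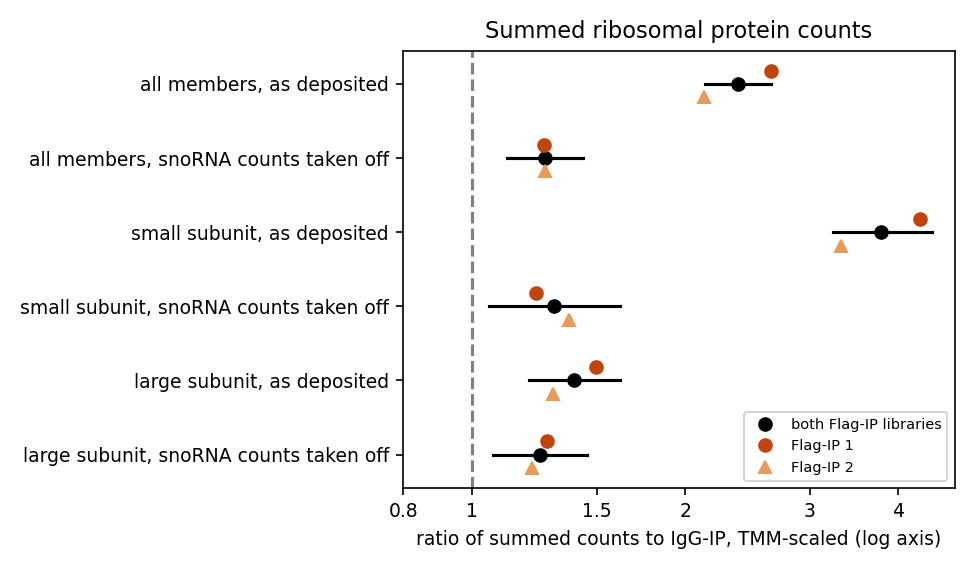
Ratio of the summed counts of each set to IgG-IP after TMM scaling (horizontal log axis), with black points and bars for both Flag-IP libraries and their 95% counting interval, and coloured points for the single libraries. The small-subunit ratio is 3.79 as deposited and 1.30 with snoRNA counts taken off, while the large-subunit ratio is 1.40 and 1.25.

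Markers of cell types were summed as well, and some sets were higher and others lower in Flag-IP. Their part in the sums of the members was not tested. The white adipocyte markers, of which 3 of 13 tested were called higher (Aqp7, Plin1 and Plin4) and 0 lower, are given above. Over all tested genes, 5.58% were called higher and 5.77% lower. Skeletal muscle markers (2 of 4 tested rose, Ckm and Tnnt3, and 0 fell) had higher sums in both Flag-IP libraries, though Myh1 had 24, 14 and 21 counts. Lymphocyte markers (0 of 4 called, summed counts 50, 64 and 31) also had higher sums in both. Macrophage markers summed to 286, 314 and 509, with 1 of 4 tested lower (Ptprc, 168, 211 and 365 counts). Ptprc and Emr1 (76, 68 and 111) held most of these, while C1qb (12, 6 and 0), C1qa (6, 4 and 2) and Cd68 (4, 6 and 2) had their higher counts in Flag-IP. Cd14 and Lyz2 (each 0, 0 and 4) had counts in IgG-IP only, and Csf1r had 20, 19 and 21. Endothelial markers at 470, 567 and 536 and fibroblast markers at 331, 264 and 292 had no member called. Epithelial markers summed to 30, 34 and 15 and erythroid markers to 9, 8 and 15, also with 0 called.

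The ribosomal protein genes were compared with other genes by length. Per kilobase of transcript, the 84 protein-coding members had a median of 4.31 counts in Flag-IP 1, 4.39 in Flag-IP 2 and 2.63 in IgG-IP. The other 21104 protein-coding genes had medians of 5.51, 5.97 and 5.45 on that scale. The members' median was thus below that of the other genes in each library, while single members such as Rpl11 and Rpl13a lay above it. Per kilobase of gene span, introns included, the members had 1.05, 1.15 and 0.845 counts and the other genes 0.727, 0.804 and 0.792. The mean count followed the gene span closely across other protein-coding genes (Spearman rho 0.91 over 20322 genes, and 0.55 with transcript length, as a description of genes that share the same libraries). Over the protein-coding members the values were 0.59 and 0.36. Members are compact, with a median span of 3328.5 bases and a median transcript of 950 bases against 17829 and 2725. In the middle range of the members' spans (2476 to 4762 bases), 1830 other genes had a median mean count of 2.67 and 42 members one of 3.33.

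**Figure D5:**
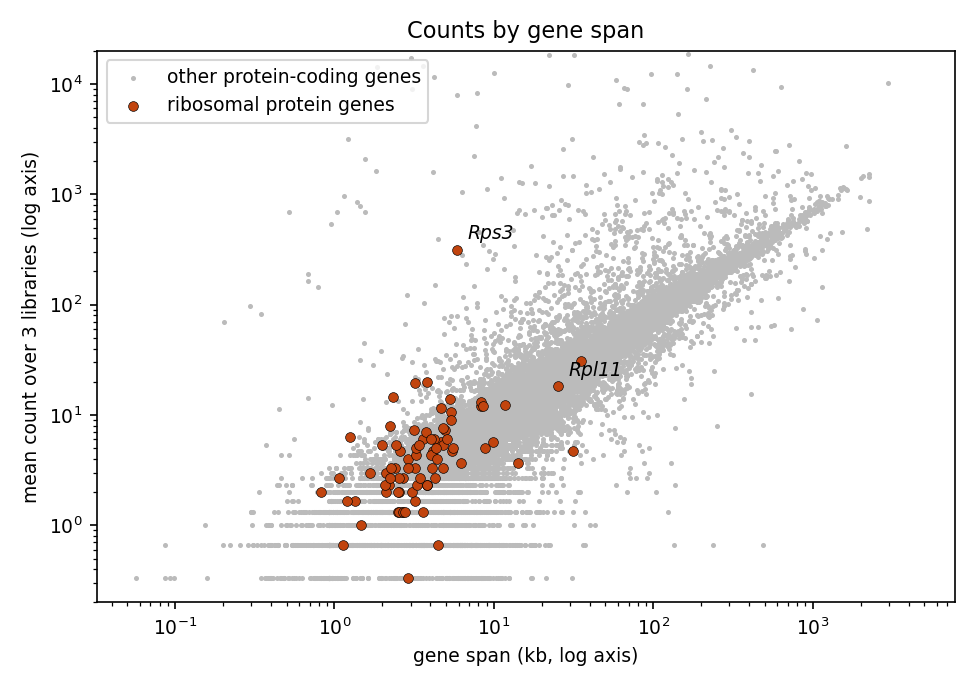
Mean count over the 3 libraries (vertical log axis, which leaves out the most highly counted genes) by gene span in kilobases (horizontal log axis) for other protein-coding genes in grey and protein-coding ribosomal protein genes in orange, leaving out genes with 0 counts. Counts rise with span (rho 0.91), most members lie among other genes of their span, and Rps3, with the counts of its snoRNAs, stands above them.

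Sequence shared with other genes was common in this set. A median of 47.4% of a member's transcript runs of 50 bases also occurred in transcripts of other genes, against 4.11% for 79 mitochondrial ribosomal protein genes. For 40 members the share was at least 50%. The median of the mean counts was 3.33 for the 49 members under 50% and 3.83 for the other 40. Per kilobase of transcript the medians were 2.88 and 5.13 counts, higher in the members that share more sequence. The 214 rows named as ribosomal protein pseudogenes summed to 205, 171 and 88 counts, a ratio of 2.34 (1.85 to 2.99), and 97 of them were at 0 in all libraries. Of these, 3 were tested and 0 called.

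Other genes also overlap the members. An annotated gene overlaps 52 of the 89, and for 23 it is protein-coding. In 14 of those the overlapping gene had at least as many counts in each library. Rpl13 with 2, 9 and 1 counts lies inside the transcription unit Gm20388, which had 56326, 43668 and 32242. Over the 37 members that overlap no gene, the ratio of summed counts was 1.25, and of the 7 of them that were tested 0 were called.

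Of the 64 members with a start in the RefSeq promoter table, 13 (20.3%) began with C followed by at least 4 pyrimidines (C or T), the form of a terminal oligopyrimidine tract. Among 26961 other genes 2.97% did. The pattern was searched only at the exact annotated start, so a tract is missed where that start is a few bases off. The transcript GC content of the protein-coding members had a median of 51.3%, against 49.1% for other protein-coding genes. For the tested members the median was 48.8%.

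Counts of calls among the other genes of translation stand beside the 5.58% called higher and 5.77% called lower of all tested genes. Of 10 elongation factors, all tested, 1 was higher and 0 lower, and the median log2 fold change was 0.56. The higher one was Eef2, the translocation factor, at 44, 33 and 7 counts (2.58 ± 0.61, edgeR adjusted p = 0.000812), and the snoRNA counts inside it were 0, 1 and 0. Eef1a1, which brings aminoacyl-tRNA to the ribosome, had 35, 38 and 21 counts (edgeR adjusted p = 0.219). Of 33 tested initiation factors 2 were higher (Eif4a2 and Eif4h) and 1 was lower; the median was 0.13. The helicase gene Eif4a2 had 148, 70 and 10 counts (3.58 ± 0.44, edgeR adjusted p = 5.78e-14), and snoRNA genes inside it had 136, 65 and 0 counts. Eif3f, a subunit of the initiation complex, was lower, at 113, 98 and 824 counts (-2.83 ± 0.22).

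Ribosomal proteins under other symbols and other terminal oligopyrimidine genes had 2 higher and 1 lower of 16 tested (median 0.02), namely Gnb2l1 and Eef2, and Eif3f. Gnb2l1 (Rack1), a scaffold protein of the small subunit, had 13, 16 and 0 counts (edgeR adjusted p = 0.0125), and the 3 snoRNA genes inside it had 0 in each library. Fau, made as a fusion of a ubiquitin-like protein with a small-subunit protein, had 2, 4 and 0 counts. Of 71 tested ribosome biogenesis factors 5 were higher (Ubtf, Ncl, Noc2l, Pes1 and Wdr18) and 3 lower (Rpf2, Rrp15 and Wdr75), with a median of 0.22. Ubtf, a factor for transcription of ribosomal RNA genes, rose at 69, 55 and 9 counts (2.90 ± 0.50), and Ncl, nucleolin, at 106, 71 and 30 (edgeR adjusted p = 0.000204), with 0, 0 and 3 snoRNA counts inside Ncl. A list of TOR pathway and ribosomal S6 kinase genes had 2 higher (Mtor and Rps6ka2) and 2 lower of 16 (median 0.59). Its genes Rps6ka6 (32, 49 and 99 counts, -1.16 ± 0.33) and Rps6ka5 (90, 105 and 217 counts, -1.02 ± 0.25) were the lower ones. The calls of the Rps6ka genes are not read here as results about the TOR kinase.

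Mitochondrial ribosomal proteins, which build the separate ribosome inside mitochondria, summed to 959, 1096 and 1047 counts over 80 rows, a ratio of 1.07 (0.997 to 1.16), and 0.750 with total-count scaling. Of 38 tested 2 were higher and 0 lower, and the median log2 fold change was -0.31. The higher ones were Mrpl48, at 158, 166 and 105 counts (0.76 ± 0.26, edgeR adjusted p = 0.0407), and Mrps24, at 17, 31 and 6, while Mrps28, at 98, 93 and 154, did not pass the test. The cytosolic members had a ratio of 1.27 with snoRNA counts taken off, and their counting interval (1.12 to 1.43) overlaps that of the mitochondrial set. The difference between the sets was not tested.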

How the data were processed

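RNA from 2 Flag-IP libraries and 1 IgG-IP library was sequenced. The authors deposited raw counts per Ensembl gene, with no normalization. CASAVA 1.7, Bowtie 0.12.2 and the build mm8 are named in the submitters' processing notes. How reads were counted (program, annotation release, strand) is not given in the sources used here, so overlapping genes, antisense genes and copies are uncertain. Positions, classes, spans and transcripts come from GENCODE M21 (GRCm38), matched by Ensembl identifier (37693 of 39179), and none are in mm8. Start sequences come from the RefSeq promoter table.

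Genes were kept by filterByExpr with a minimum count of 10 and scaled by TMM (factors 0.840 and 0.936 for the Flag-IP libraries and 1.27 for IgG-IP). The filter applies this minimum at the median library total and scales it to each library, so fewer counts suffice in IgG-IP. Flag-IP was tested against IgG-IP over all 17587 genes with edgeR 4.0.16's quasi-likelihood test in R 4.3.3, adjusted by Benjamini and Hochberg's method, at a threshold of 0.05. The SE is the log2 fold change divided by the square root of F. The test has 1 residual degree of freedom, 0 genes had finite prior degrees of freedom, and p-values therefore rest on a spread shared between genes. The common dispersion was 0.0359. Over 14838 tested genes with a summed count of at least 20 and a mean up to 10000, the chi-square between the Flag-IP libraries, divided by its degrees of freedom, was 3.23, where sampling noise alone gives about 1, and they were kept as 2 samples. The fit was tested on simulated data. Ratios of sums have exact binomial (Clopper-Pearson) 95% intervals, for counting error only. To take snoRNA counts off, the counts of annotated snoRNA genes inside a member on its strand were subtracted.

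Members and lists were chosen with earlier results of these data known. The rule for named genes took every member past the threshold, members averaging 20 counts or more, the paralog pairs, and the 2 genes of each other list with the largest fold change at that mean. All other genes named were chosen after their values were seen. Alternatives were other scalings, filters, DESeq2 1.42.0, a likelihood ratio test, GC and length trends, members with no overlapping gene and leaving out each Flag-IP library. A deposited list of lipid genes and an image of densities were not used here. Some genes are not reported here.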

Additional observations from a re-analysis of the deposited data

How the results depend on the processing

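The calls of Rps3 and Rpl10 held under RLE, upper-quartile and total-count scaling, TMM on protein-coding genes, no filter, and GC or length trends removed. The count of members higher was 2. It was 1 among genes averaging 50 counts or more, which leaves 1 member, 1 with DESeq2, 5 with the likelihood ratio test, 0 with snoRNA counts taken off and 0 over members with no overlapping gene. The count lower was 0, and 1 with total-count scaling (the row labelled Rpl24). The median log2 fold change of 0.62 was 0.10 with total-count scaling, 0.21 with snoRNA counts taken off, 0.19 over members with no overlapping gene, 0.41 with GC and length trends removed and 3.24 among genes averaging 50 counts or more (Rps3 alone), and leaving out a Flag-IP library gave 0.084 to 0.81. The ratio of sums, 2.37, was 1.66 with total-count scaling, 1.27 with snoRNA counts taken off and 1.25 over members with no overlapping gene, and leaving out a Flag-IP library gave 2.13 to 2.64. The ratio with snoRNA counts taken off, 1.27, was 1.26 with RLE scaling, 1.33 with upper-quartile scaling, 1.25 with TMM on protein-coding genes, 1.36 without the row labelled Rpl24 and 0.883, in the other direction, with total-count scaling. Leaving out a Flag-IP library gave 1.26 to 1.27. Rpl3l, at -0.18, was -0.51 without Flag-IP 1 and 0.095 without Flag-IP 2. Where no construction above shows it, the cause was not tested. Over all genes, calls were 981 higher and 1015 lower, 342 and 3008 with total-count scaling, 131 and 145 with DESeq2 (no adjusted p for 15684 genes), 1130 and 751 with the likelihood ratio test, 1118 and 785 with upper-quartile scaling, and 412 and 352 with the GC trend removed. Leaving out a Flag-IP library leaves no residual degree of freedom, so these are values with no test. No paired analysis was possible because the groups share only replicate number 1. Taking snoRNA counts off and leaving out the row labelled Rpl24 were chosen after seeing the data. With a median of 4 counts per row, changes of single members outside Rps3 were mostly not detectable at this depth.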
